A study of Mus musculus with 4 samples.

Results

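The dendritic cell lineage genes are 10 genes of the receptors, transcription factors and surface proteins by which dendritic cells are told from other leukocytes. Their members here were all probe sets that carry 1 of these symbols, and no other, in the platform annotation of the array. There were 17 such probe sets among the 45037 tested, and they named 8 of the 10 genes. Fscn1 and Zbtb46 had 4 probe sets each, Tcf4 had 3, Irf8 had 2, and Flt3, Xcr1, Batf3 and Cd83 had 1 each. No tested probe set carried the symbol Clec9a or Siglech, so both genes have no value here.

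The probe sets were read on Affymetrix MG-430PM arrays, in total RNA of bulk tumors grown from 4T1Ch9, a murine TNBC cell line of Balb/c origin. All mice were wild-type Balb/c females given 50000 cells in the mammary fat pad, and treatment started at 10 days. The MEKi group then received trametinib, an inhibitor of the MEK kinases, at 1 mg/kg each day for 7 days, and the vehicle group received the carrier for the same time. Each group is represented by 2 arrays, named here by their labels (MEKi 1, MEKi 2, vehicle 1 and vehicle 2). The age of the mice is not in the labels, and the paper gives only a range for its wild-type mice. Separate mice are not stated for the arrays that carry the same label, and the p-values therefore cover only array-to-array spread, which may be technical.

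Dendritic cells take up antigen, carry it to lymph nodes and present it to naive T cells. Conventional dendritic cells of type 1 (cDC1) need Batf3 and Irf8 and cross-present antigen to CD8+ T cells, those of type 2 (cDC2) mainly prime CD4+ T cells, and plasmacytoid dendritic cells (pDC) need Tcf4 and make type I interferon. All of them depend on the cytokine FLT3L and its receptor. On activation, dendritic cells raise CD83 and the actin bundler fascin and move to the lymph node. Several of these genes are also used elsewhere, Irf8, Cd83 and Tcf4 in B cells, Irf8 in macrophages, Tcf4 in stromal and endothelial cells and Fscn1 in carcinoma cells.

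The arrays did not group by label. Over the 45037 probe sets, which share their arrays and are no replicates, Pearson's r came to 0.992 between MEKi 1 and vehicle 2 and 0.978 between MEKi 2 and vehicle 1, against 0.927 between the MEKi arrays and 0.959 between the vehicle arrays. Dusp6, an ERK-induced phosphatase whose transcript reads out MEK activity, was at a log2 level of 9.59 in MEKi 1 and 12.30 in MEKi 2, against 12.02 in vehicle 1 and 10.96 in vehicle 2. The neutrophil gene S100a8, by contrast, had both MEKi arrays (9.99 and 11.10) above both vehicle arrays (6.17 and 7.70). Whether labels were exchanged between arrays cannot be settled from these values, so no label was changed and every difference below is by label. A log2 value near 3.85 to 3.88, where each array has its 25th percentile, is close to the floor. In these bulk samples, fewer cells of a type and less RNA per cell cannot be told apart.

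Flt3, Irf8, Cd83 and Xcr1 were higher in the arrays MEKi 1 and vehicle 2 than in the arrays MEKi 2 and vehicle 1, Tcf4 and Fscn1 were lower there, and Batf3 and the brightest Zbtb46 probe set hardly moved. None of the 17 probe sets was called between MEKi and vehicle. The limma fit called a probe set at an adjusted p below 0.1 (Benjamini-Hochberg, all probe sets) together with an unadjusted p below 0.05 and more than 1.5-fold change. The share called among all probe sets was 0.0%, so the count of members says nothing particular to them. The lowest adjusted p of a member was 1, and at an unadjusted p under 0.05 there were 0 members and 406 of all probe sets.

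**Figure D1:**
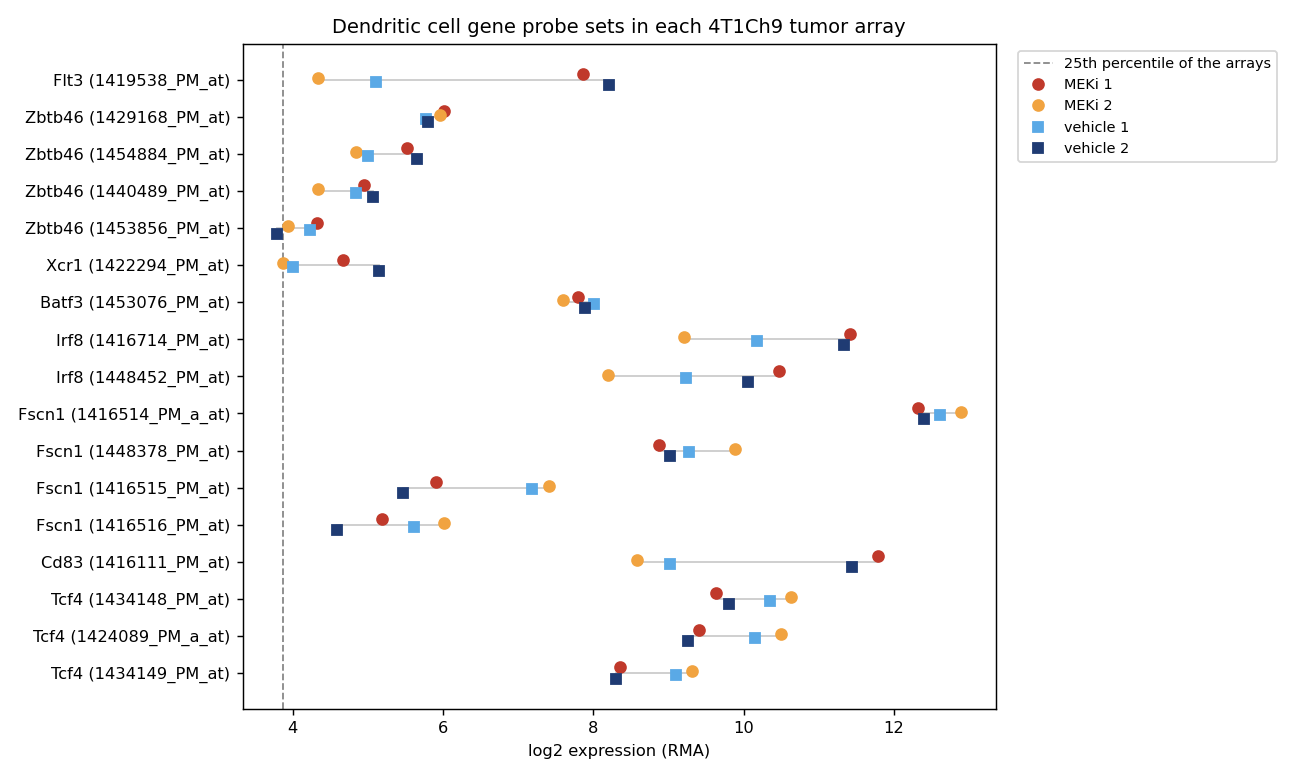
Log2 expression (RMA, horizontal axis) of the 17 probe sets. Circles stand for the MEKi arrays, squares for the vehicle arrays, and the dashed line for the mean 25th percentile of the arrays. Flt3 reads 7.87 in MEKi 1 and 8.21 in vehicle 2, against 4.33 in MEKi 2 and 5.11 in vehicle 1.

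Flt3 encodes the receptor tyrosine kinase for FLT3L, present on dendritic cell progenitors and on conventional and plasmacytoid dendritic cells. Its probe set (1419538_PM_at) read 7.87 in MEKi 1 and 4.33 in MEKi 2, against 5.11 in vehicle 1 and 8.21 in vehicle 2. The groups overlapped, since each held 1 high and 1 low array. The gap inside each label, 3.53 log2 units for MEKi and 3.10 for vehicle, was larger than the difference by label. That difference was −0.56 (SE 1.73, 95% interval −5.49 to 4.37, limma adjusted p = 1). The range of Flt3 over the 4 arrays, 3.88 log2 units, was at the 99.1th percentile of all probe sets.

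The 250 bases before the annotated start of Flt3, Irf8 and Fscn1 are shown because Flt3 and Irf8 were high in the arrays where Fscn1 was low. The sequences are RefSeq's, build GRCm38.p6, read 5′ to 3′ along each gene's strand, with matches to a motif in capitals. In Flt3 (chr5:147400490-147400739, minus strand) the capitals mark the ETS core GGAAGT on the opposite strand, in Irf8 (chr8:120736108-120736357, plus strand) the GAS motif TTCNNNGAA, bound by STAT factors, and in Fscn1 (chr5:142960105-142960354, plus strand) the cAMP response element TGACGTCA.
Flt3: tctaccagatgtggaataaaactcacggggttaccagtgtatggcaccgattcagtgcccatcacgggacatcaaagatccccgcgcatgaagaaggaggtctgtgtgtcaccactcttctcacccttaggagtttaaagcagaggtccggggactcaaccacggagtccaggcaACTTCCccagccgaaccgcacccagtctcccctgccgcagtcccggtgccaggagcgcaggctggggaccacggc
Irf8: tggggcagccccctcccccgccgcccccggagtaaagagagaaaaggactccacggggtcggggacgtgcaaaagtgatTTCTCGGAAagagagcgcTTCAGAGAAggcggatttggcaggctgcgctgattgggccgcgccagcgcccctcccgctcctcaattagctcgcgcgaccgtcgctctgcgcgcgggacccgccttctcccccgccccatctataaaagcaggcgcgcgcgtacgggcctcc
Fscn1: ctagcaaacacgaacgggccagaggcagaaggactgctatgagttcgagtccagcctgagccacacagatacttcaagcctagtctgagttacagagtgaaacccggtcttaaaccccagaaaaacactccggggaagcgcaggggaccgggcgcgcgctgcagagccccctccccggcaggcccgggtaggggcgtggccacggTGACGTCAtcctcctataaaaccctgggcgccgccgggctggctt

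The motifs were searched on both strands in windows from 250 bases before to 50 bases after each annotated start, 32851 windows in all, of which 9 belong to 8 of the listed genes. GGAAGT was found in the windows of Flt3, Xcr1, Batf3 and Siglech and in 23.8% of all windows. TTCNNNGAA was found in Irf8, at 171 and 153 bases before the start, and in Batf3 and Siglech, and in 8.3% of all windows. TGACGTCA was found in Fscn1, at 45 bases before the start, and in 1.79% of all windows. The E-box CAGGTG, the kind of site that Tcf4 binds as an E protein, was found in windows of Zbtb46, Siglech and Irf8, in the last at another start than the one shown, and in 20.2% of all windows. In Batf3, GGAAGT and TTCNNNGAA overlap. A match is a description of the letters only.

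Irf8 encodes an interferon regulatory factor that sets the fate of cDC1 and is also present in B cells, monocytes and macrophages. Its brighter probe set (1416714_PM_at) read 11.42 in MEKi 1 and 9.20 in MEKi 2, against 10.18 in vehicle 1 and 11.33 in vehicle 2. The other (1448452_PM_at) read 10.48, 8.20, 9.23 and 10.06 in the same order. Both probe sets were highest in MEKi 1 and lowest in MEKi 2, so both vehicle arrays lay between the MEKi arrays. By label the difference was −0.45 (SE 0.93, limma adjusted p = 1) for the brighter and −0.31 (SE 0.90, adjusted p = 1) for the other. The gap between the MEKi arrays was 2.22 log2 units for the brighter probe set and 2.28 for the other.

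Cd83 encodes a surface protein raised on mature dendritic cells and on activated B cells, where it holds MHC class II at the surface. It read 11.79 in MEKi 1 and 8.58 in MEKi 2, against 9.02 in vehicle 1 and 11.44 in vehicle 2 (1416111_PM_at). MEKi 1 and vehicle 2 lay within 0.36 of each other and at least 2.42 above the other two arrays. The means of the groups were nearly equal, at 10.19 for MEKi and 10.23 for vehicle. The difference by label was −0.04 (SE 1.48, 95% interval −4.27 to 4.18, limma adjusted p = 1), an interval that spans large changes in either direction.

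Xcr1, the chemokine receptor of cDC1 for XCL1, was dim on every array. It read 4.67 in MEKi 1 and 3.88 in MEKi 2, against 4.01 in vehicle 1 and 5.15 in vehicle 2 (1422294_PM_at). MEKi 2 was just under the 25th percentile of its array and vehicle 1 just above its own, so both were at the floor. The groups overlapped, and the difference by label was −0.30 (SE 0.53, limma adjusted p = 1).

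Batf3, an AP-1 factor that partners Irf8 and keeps its gene active in cDC1, differed little between arrays. It read 7.80 in MEKi 1 and 7.59 in MEKi 2, against 8.003 in vehicle 1 and 7.88 in vehicle 2 (1453076_PM_at). Both MEKi arrays lay below both vehicle arrays, which was so in 1 of 17 members and in 9.86% of all probe sets. The difference by label was −0.25 (SE 0.18, 95% interval −0.77 to 0.27), and it was not called (limma adjusted p = 1). The range over the 4 arrays was 0.41 log2 units, against a median of 0.51 over all probe sets.

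Zbtb46 encodes a zinc finger factor of conventional dendritic cells and their committed progenitors, also found in endothelium, and its 4 probe sets disagreed. The brightest (1429168_PM_at) read 6.02 in MEKi 1 and 5.96 in MEKi 2, against 5.77 in vehicle 1 and 5.80 in vehicle 2. Here both MEKi arrays lay above both vehicle arrays, as in 1 of 17 members and 12.1% of all probe sets, and the difference was 0.20 (SE 0.16, limma adjusted p = 1). The other probe sets had overlapping groups. 1454884_PM_at was highest in vehicle 2 (5.65) and MEKi 1 (5.53), at 4.84 in MEKi 2 and 4.996 in vehicle 1. 1440489_PM_at stood out low in MEKi 2 alone (4.34, against 4.85 to 5.07), and 1453856_PM_at lay between 3.79 and 4.32, near the floor. By label 2 of the 4 differences were positive and 2 negative, from −0.32 to 0.20, and the mean over the 4 was −0.033.

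Tcf4, the E protein that specifies plasmacytoid dendritic cells and that stromal and endothelial cells also use, ran against Flt3, Irf8 and Cd83. Its brightest probe set (1434148_PM_at) read 9.63 in MEKi 1 and 10.63 in MEKi 2, against 10.36 in vehicle 1 and 9.80 in vehicle 2. The second (1424089_PM_a_at) read 9.41, 10.49, 10.16 and 9.26, and the third (1434149_PM_at) 8.36, 9.32, 9.10 and 8.31, in the same order. All 3 probe sets were highest in MEKi 2, with vehicle 1 next. The vehicle arrays lay between the MEKi arrays in the brightest probe set, and the differences by label ran from 0.06 to 0.25 (SE 0.45 to 0.54, limma adjusted p = 1 for each).

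Fscn1 encodes fascin, which bundles actin in the processes of mature dendritic cells and in the protrusions of invasive carcinoma cells. Its brightest probe set (1416514_PM_a_at) read 12.32 in MEKi 1 and 12.90 in MEKi 2, against 12.61 in vehicle 1 and 12.39 in vehicle 2. The remaining 3 probe sets were also highest in MEKi 2, with vehicle 1 next, and differed more between arrays, by 1.01, 1.95 and 1.42 log2 units against 0.58 for the brightest. For 1416515_PM_at, which differed most, the values were 5.91, 7.41, 7.19 and 5.46. The 4 differences by label were all positive, from 0.11 to 0.50, and each was smaller than the larger gap inside a label (limma adjusted p = 1 for each). The Fscn1 probe sets and Cd83 had their highest values in different arrays.

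**Figure D2:**
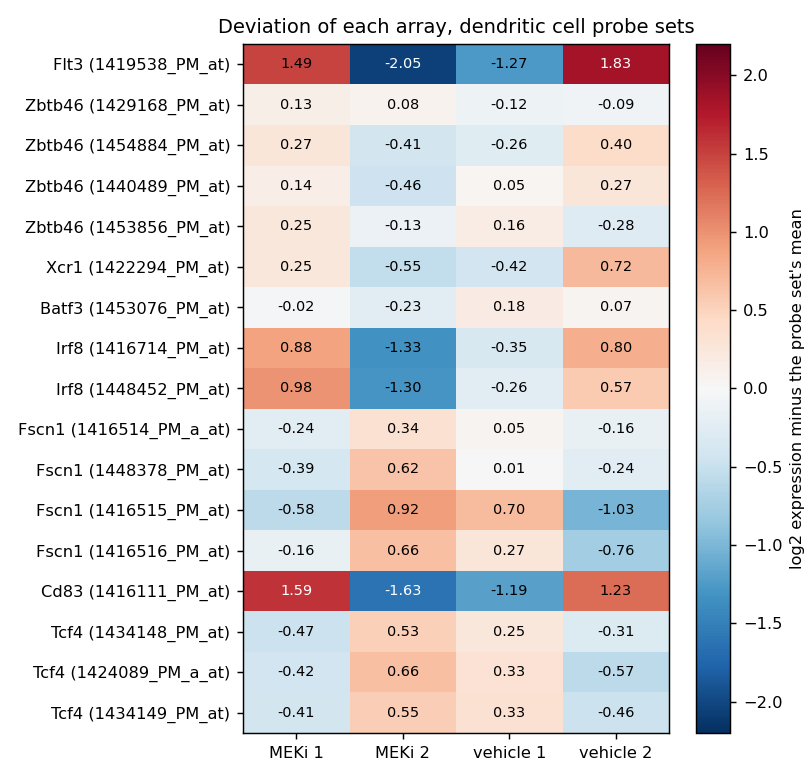
Log2 expression of each probe set minus its mean over the 4 arrays, 1 row per probe set and 1 column per array, in red where above and in blue where below the mean. Flt3 deviates by 1.49 in MEKi 1 and −2.05 in MEKi 2, whereas the brightest Tcf4 probe set deviates by −0.47 and 0.53.

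Over all members, 15 of 17 probe sets had overlapping groups, as had 78.0% of all probe sets. In 15 of 17 the larger gap between arrays of the same label exceeded the difference by label, as it did in 87.0% of all probe sets. The 2 exceptions were Batf3 and the brightest Zbtb46 probe set. The range over the 4 arrays was above 2 log2 units in 4 of 17 members (Flt3, Cd83 and both Irf8 probe sets), against 6.49% of all probe sets. The median range was 1.01 against 0.51. With 1 probe set a gene, it was above 2 in 3 of 8 members and 1441 of 17097 genes. The members were also brighter, with array medians of 7.59 to 8.21 against 4.98 to 5.14 for all probe sets, and brightness was not matched. The highest array was MEKi 2 in 7 members, MEKi 1 in 5, vehicle 2 in 4 and vehicle 1 in 1. The median difference by label was 0.06 over the members and 0.01 over all probe sets, with 9 members positive and 8 negative. Its sign was not stable, being −0.07 without MEKi 1 and −0.15 over the 8 genes with 1 probe set each.

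The sign of the difference by label rested on single arrays in 6 of the 8 genes. Without the array MEKi 2 the difference of Flt3 was 1.21, that of Cd83 1.57 and that of Irf8 0.66, and without MEKi 1 it was −2.33, −1.65 and −1.56. Without vehicle 1 it was −2.11, −1.25 and −1.02, and without vehicle 2 it was 0.99, 1.17 and 0.12. Xcr1 turned in the same way, from −0.30 to 0.09 without MEKi 2 and 0.26 without vehicle 2, and was −0.70 without MEKi 1 and −0.87 without vehicle 1. Tcf4 was −0.44 without MEKi 2 and −0.22 without vehicle 2, and 0.56 and 0.33 without MEKi 1 and vehicle 1. Fscn1 ran between −0.18 and 0.40. Batf3, from −0.35 to −0.15, and the brightest Zbtb46 probe set, from 0.18 to 0.23, kept their sign, though neither was called in any of these fits. Centring the arrays on tumor epithelial genes, which put the median of all probe sets at 0.71, turned the sign of Flt3, Xcr1, Batf3, Irf8 and Cd83, with Batf3 at 0.45.

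**Figure D3:**
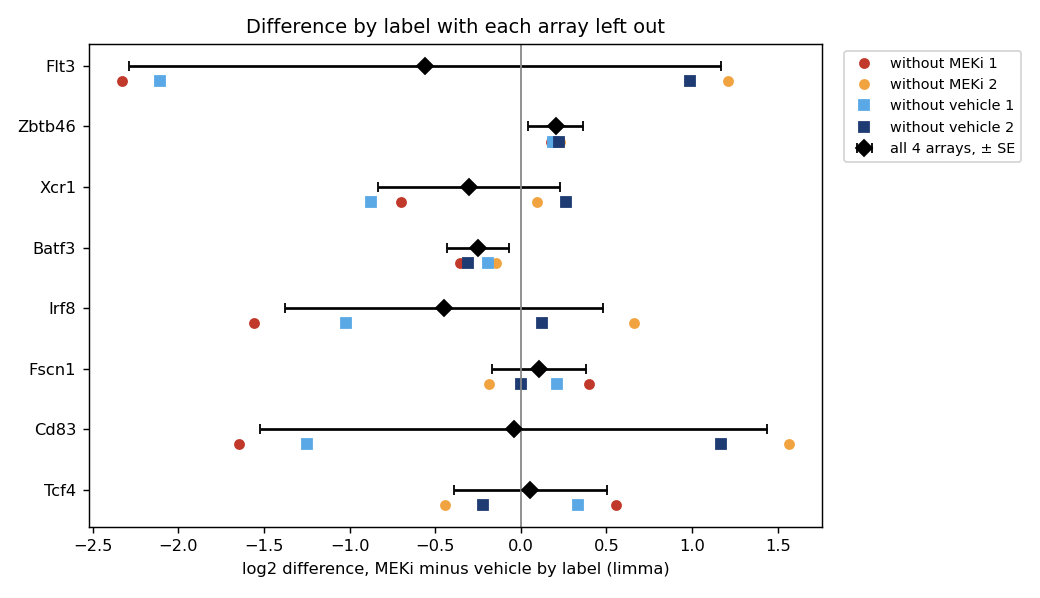
Difference in log2 expression, MEKi minus vehicle by label (limma, horizontal axis), for the brightest probe set of each gene. Diamonds with bars are the fit of all 4 arrays ± SE, and the points under them are the fits without 1 array. For Flt3 they run from −2.33 (without MEKi 1) to 1.21 (without MEKi 2), on either side of 0.

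Genes of other cell types differed between the arrays along with these members. Of 15 listed B cell genes 14 were measured, and their median log2 level was 9.73 in MEKi 1 and 4.28 in MEKi 2, against 4.38 in vehicle 1 and 9.50 in vehicle 2. Their summed level, on the log2 scale, was between 10.11 and 15.03 in the MEKi arrays and between 10.27 and 14.63 in the vehicle arrays. Ms4a1, which encodes CD20, read 12.21, 3.97, 4.15 and 11.61 in that order, the same arrays being high as for Flt3, Irf8 and Cd83. Of 14 listed T cell genes 13 were measured. Their summed level was 13.87 in MEKi 1 and 9.33 in MEKi 2, against 10.83 in vehicle 1 and 13.82 in vehicle 2. For high endothelial venules and lymph node stroma, 9 of 10 listed genes were measured. These had summed levels of 13.69 in MEKi 1 and 9.50 in MEKi 2, against 9.57 in vehicle 1 and 13.46 in vehicle 2. Glycam1 of this list read 12.27, 3.50, 3.73 and 12.05 in that order, and Cxcl13 12.02, 4.38, 6.21 and 11.66. Ltbr ran the other way, at 7.82, 9.20, 9.10 and 8.07. In that list 5 genes were under the 25th percentile in MEKi 2 and 3 in vehicle 1. The part of these cells in the levels of Flt3, Irf8 and Cd83 was not tested.

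Endothelial genes, 10 of 10 measured, had median levels of 8.01 in MEKi 1 and 9.02 in MEKi 2, against 9.02 in vehicle 1 and 8.29 in vehicle 2, the higher medians being those of the arrays where Tcf4 and Fscn1 were higher. Their summed level was between 11.48 and 12.01 in the MEKi arrays and between 11.55 and 12.12 in the vehicle arrays. Of the 10 genes 6 were lowest in MEKi 1, but 4 (Pecam1, Kdr, Tek and Vwf) were lowest in MEKi 2. Macrophage and monocyte genes, 14 of 15 measured, had their lowest median in MEKi 1 (9.19) and their highest in vehicle 1 (10.80), with summed levels of 13.91 to 14.42 and 14.42 to 15.21. Tumor epithelial genes, 16 of 17 measured, had medians of 6.39, 6.21, 6.90 and 7.10 in the order MEKi 1, MEKi 2, vehicle 1 and vehicle 2, with summed levels of 12.51 to 13.80 and 13.40 to 14.39. The list was not uniform, since 9 of its 16 genes were lowest in MEKi 2 and 6 in MEKi 1. Keratin Krt8 read 10.54, 12.11, 12.92 and 11.75, Krt19 read 8.91, 4.52, 9.36 and 9.42, and the adhesion molecule Epcam 9.06, 6.54, 8.79 and 9.23. Krt7 read 7.89, 7.39, 9.86 and 8.50, and Lcn2 9.87, 12.37, 11.88 and 10.25, highest in MEKi 2 with vehicle 1 next. Fibroblast genes, 10 of 10 measured, had medians of 9.16, 8.11, 9.99 and 9.76, and NK cell genes, 6 of 8 measured, of 6.90, 4.56, 5.88 and 7.00 in that order. Neutrophil genes, 8 of 10 measured, had both MEKi arrays above both vehicle arrays in 5 (11% of all genes), as the brightest Zbtb46 probe set did, S100a8 among them. The gelatinase gene Mmp9 of the same list ran the other way, at 7.37 and 8.89 in the MEKi arrays and 11.23 and 9.39 in the vehicle arrays. The part of any of these cells in the levels of Tcf4, Fscn1, Irf8 and Zbtb46 was not tested.

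**Figure D4:**
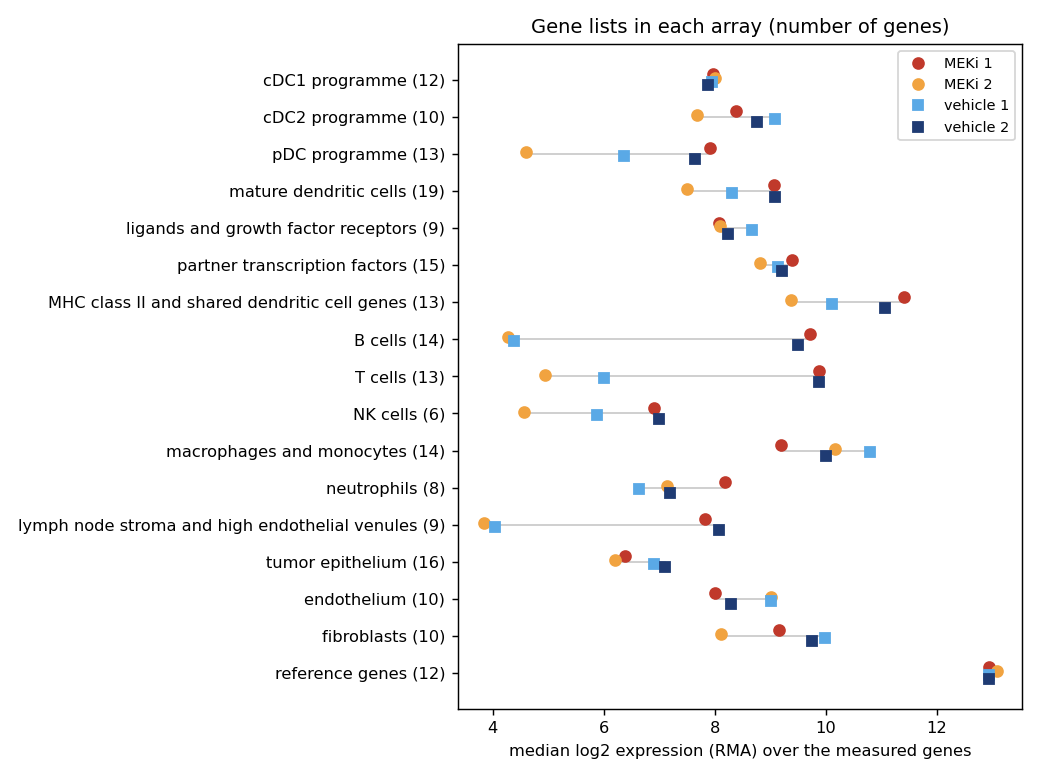
Median log2 expression (RMA, horizontal axis) of the gene lists, where parentheses hold how many genes were measured, circles stand for MEKi arrays and squares for vehicle arrays. The pDC programme lies at 7.91 in MEKi 1 and 4.61 in MEKi 2, while the cDC1 programme stays between 7.88 and 8.01.

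Other genes of the cDC1 programme had a median range of 0.67 log2 units over the 4 arrays, and 3 of 12 ranged over more than 2. Of 13 listed genes 12 were measured and 0 were called, and 0.0% of all genes were called when each was represented by its brightest probe set. The medians were 7.96 in MEKi 1 and 8.01 in MEKi 2, against 7.96 in vehicle 1 and 7.88 in vehicle 2. The median difference by label was −0.09. With the arrays centred on tumor epithelial genes it was 0.60, while that of all probe sets was 0.71. The 4 that differed most between arrays were Gcsam, Itgae, Wdfy4 and Id2. Wdfy4, a gene needed for cross-presentation that B cells also express, read 9.78, 7.17, 7.61 and 9.51 in the order MEKi 1, MEKi 2, vehicle 1 and vehicle 2. Itgae, the CD103 integrin chain of tissue cDC1 and of resident T cells, read 7.77, 5.11, 5.92 and 7.20. Gcsam, a gene also of germinal centre B cells, read 7.56, 3.96, 5.14 and 7.97. Tlr3, Cadm1 and Naaa, whose main cDC1 roles are sensing of double-stranded RNA, adhesion and lipid hydrolysis, ranged over 0.93, 0.42 and 0.34 log2 units, and Naaa was near the floor.

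Genes of the cDC2 programme had the lowest median in MEKi 2 (7.68) and the highest in vehicle 1 (9.08). All 10 measured genes of 12 listed had a negative difference by label, with a median of −0.95, but 0 were called. Both MEKi arrays lay below both vehicle arrays in 6 of the 10 (Sirpa, Cd209a, Cd209d, Clec10a, Mgl2 and Klf4), which was so in 10.2% of all genes. It was not particular to this list, being so in 8 of 16 tumor epithelial genes and 5 of 10 fibroblast genes. Of the macrophage and monocyte genes it was so in 3 of 14, and of the 14 B cell and 13 T cell genes in 0. The genes that differed most between arrays were Irf4, Ltb, Cd209d and Itgam. Cd209d, a C-type lectin of the DC-SIGN family, read 6.45, 3.81, 7.48 and 7.70 in the order MEKi 1, MEKi 2, vehicle 1 and vehicle 2. Irf4, also a factor of activated B cells and plasma cells, read 9.89, 4.78, 5.92 and 9.96, and Ltb, a lymphotoxin chain of lymphocytes, 11.75, 7.16, 8.26 and 11.79. Itgam, also a gene of macrophages and neutrophils, read 5.57, 7.57, 8.65 and 6.34. The tumor epithelial genes had a like median difference by label, −0.95, and with the arrays centred on them the median of the cDC2 genes was −0.25, with 4 positive and 6 negative, while that of all probe sets was 0.71. Macrophage and monocyte genes, with which Cd209a, Clec10a and Mgl2 are shared, were negative by label in 13 of 14, with a median of −0.65, and fibroblast genes in 7 of 10, with a median of −1.13. The part of these cells in the cDC2 values was not tested.

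Genes of the pDC programme had their lowest median in MEKi 2 and their highest in MEKi 1. Of 15 listed genes 13 were measured, with medians of 7.91 in MEKi 1 and 4.61 in MEKi 2, against 6.37 in vehicle 1 and 7.65 in vehicle 2. Spib, an ETS factor of plasmacytoid dendritic cells and B cells, read 11.09, 4.15, 4.73 and 10.55 in that order. Bcl11a, which acts with Tcf4 in the same lineage and is also a B cell factor, read 10.15, 4.40, 4.82 and 9.25. Klk1 read 9.41, 4.45, 7.07 and 9.28, and Ccr9, a homing receptor, read 7.88, 3.80, 5.14 and 7.73. These 4 were high where Tcf4 was low. The interferon regulatory factor gene Irf7 and the nucleic acid sensor genes Tlr7 and Tlr9 ranged over 0.56, 0.72 and 0.54 log2 units. None of the 13 was called, 0 had both MEKi arrays above both vehicle arrays (11% of all genes) and 1 had them below (10.2% of all genes).

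Genes of mature, migratory dendritic cells, 19 of 22 measured, had medians of 9.07 in MEKi 1 and 7.50 in MEKi 2, against 8.30 in vehicle 1 and 9.08 in vehicle 2. The difference by label was negative in 17 of 19, with a median of −0.30, and 0 were called. Centring on tumor epithelial genes shifts the differences of all probe sets alike and put their median at 0.71. The median of this list was then 0.40, with 3 of 19 negative. Ccl22, a chemokine for CCR4-bearing T cells, read 9.76, 5.49, 8.07 and 9.82, and Ccl17, its paralog, 7.64, 5.07, 8.78 and 8.16. Ccl17 was thus highest in vehicle 1, unlike Cd83, which was highest in MEKi 1. Il4i1, an amino acid oxidase of dendritic cells and B cells, read 10.78, 4.77, 6.03 and 10.11, and Cd40, the costimulatory receptor shared with B cells, 9.59, 6.08, 7.73 and 9.08. Il12b, which encodes the p40 chain of IL-12, was dim, from 3.92 to 4.36.

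The ligand of Flt3 was high in the same arrays as its receptor. Flt3l read 7.62 in MEKi 1 and 5.17 in MEKi 2, against 5.52 in vehicle 1 and 6.71 in vehicle 2, whereas Flt3 itself was highest in vehicle 2. Xcl1, the ligand of Xcr1 made by NK and CD8+ T cells, read 5.85, 4.63, 5.67 and 6.30, highest in vehicle 2 as Xcr1 was. Csf2rb, the shared receptor chain for GM-CSF, IL-3 and IL-5, read 10.75, 9.17, 10.12 and 10.50. Kitl, the stromal ligand of KIT, ranged from 9.46 in MEKi 1 to 10.97 in vehicle 1. Of 11 listed ligand and growth factor receptor genes 9 were measured and 0 were called.

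The factors that act with Batf3, Irf8, Zbtb46 or Tcf4 were measured for 15 of 15 genes, and 0 were called. Batf, the paralog of Batf3 in lymphocytes, read 8.80, 6.29, 6.91 and 8.21 in the order MEKi 1, MEKi 2, vehicle 1 and vehicle 2, a range of 2.51 log2 units against 0.41 for Batf3. Batf2 was highest in vehicle 1, at 7.87 against 5.91 to 6.39 in the other three. Id2, an inhibitor of E proteins that conventional dendritic cells need, read 10.33, 8.85, 9.85 and 10.30. It was 1 of 8 factors among the 15 that were lowest in MEKi 2, where Tcf4 was highest, and any link was not tested. The E proteins Tcf3 and Tcf12 ranged over only 0.51 and 0.40 log2 units. Spi1, which encodes PU.1, ranged over 0.50.

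Itgax, which encodes the CD11c chain used to gate dendritic cells, hardly differed between arrays, at 8.67 in MEKi 1 and 8.49 in MEKi 2, against 8.94 in vehicle 1 and 8.66 in vehicle 2. The class II genes H2-Aa, H2-Ab1, H2-Eb1 and Cd74 were bright on every array and lowest in MEKi 2, with H2-Ab1 between 11.81 and 12.67 and Cd74, the invariant chain, between 11.98 and 12.94. The class II modulators of B cells stood apart from these. Of the 4 genes of this list that differed most, H2-Ob read 11.18 in MEKi 1 and 4.23 in MEKi 2, against 4.02 in vehicle 1 and 11.08 in vehicle 2, and H2-Oa 10.49, 4.96, 4.53 and 10.09. Btla, an inhibitory receptor of lymphocytes and dendritic cells, read 11.12, 4.78, 6.22 and 10.81, and Dpp4, a peptidase of T cells and cDC1, 9.07, 4.36, 6.52 and 8.77. Of the 13 listed genes 13 were measured, 0 were called and in all 13 the groups overlapped, as they did in 78.9% of all genes.

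For Flt3, Irf8 and Cd83, the genes whose range was above 2 log2 units, the most similar profiles among 17096 other genes were found by the root mean square difference of gene-centred log2 levels over the 4 arrays. For Flt3 these were Pglyrp2 (0.149), Rasal3 (0.149) and Gimap1 (0.151). For Irf8 they were Armcx3 (0.0417), Tbc1d8 (0.0499) and Ildr2 (0.0533), which follow it in placing vehicle 1 between MEKi 2 and the high arrays. For Cd83 they were Nfkbid (0.0471), 5830428M24Rik (0.0730) and A630023P12Rik (0.0793). With 4 arrays many genes share such a profile, and the measure is a description only.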

How the data were processed

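The authors deposited log2 expression values per probe set and array, made with RMA. The paper's methods name pre-processing and quantile normalization with the AFFY package in R, and give no version of RMA or AFFY, no filter and no pooling. Scanner files were not used here. Of 45141 probe sets, 104 controls were left out and 45037 tested. The platform annotation gives 28898 of them 1 symbol, 551 several and 15588 none, and 28689 matched the RefSeq gene table by Entrez identifier, with 0 symbols changed. The brightest probe set by mean over the 4 arrays stands for a gene (17097 genes). Arrays were grouped by label. The two-sided test was limma 3.58.1 (R 4.3.3) with lmFit and eBayes, Benjamini-Hochberg adjustment ran over all probe sets, and the call thresholds follow the paper. The number of arrays limits the precision. The fit was tested on simulated data. It recovered the changes made at a small spread but missed all except the largest at the spread of these arrays. A missing call thus does not show that levels were equal. The simulated noise was drawn independently for each probe set, a setting unlike these arrays, where many probe sets moved together.

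The members, gene lists and tests were chosen with earlier results of these data known. The naming rule took every member, the 4 genes of each list with the largest range (not all are printed for the other cell types) and the 3 genes most like each member that ranged over more than 2 log2 units. Other list genes named, among them Itgax, Il12b, Krt8, Pecam1, Kdr, Tek and those given by their range alone, were chosen after their values were seen, as was Dusp6. Alternatives were each array left out, the replicate number as a block, 3 scalings, an adjusted p under 0.05, an intensity trend, the dimmest probe sets left out (a share of 0.25 by mean) and other summaries of a gene's probe sets. Python 3.11.15 with pandas 2.3.3, numpy 2.4.6, scipy 1.17.1 and matplotlib 3.10.9 was used.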

Additional observations from a re-analysis of the deposited data

How the results depend on the processing

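No alternative gave a called probe set, among the members or among all probe sets, with limma, while 80 (without vehicle 1) to 17426 (centred on tumor epithelial genes) of all probe sets had an unadjusted p under 0.05. The replicate block left the members' median difference by label at 0.06 and the calls at 0. That median ran from −0.07 (without MEKi 1) to 0.19 (without vehicle 1) with 1 array left out, and was −0.013 centred on reference genes and −0.15 with 1 probe set a gene. Deviations of arrays with the same number correlated at −0.764 across probe sets. Pairing MEKi 1 with vehicle 2 and MEKi 2 with vehicle 1, chosen after seeing the data, also gave 0 calls. Centring on tumor epithelial genes moved the median of all probe sets from 0.01 to 0.71 and that of the members from 0.06 to 0.76, and turned Flt3 to 0.14, Xcr1 to 0.40, Batf3 to 0.45, Irf8 to 0.25 and Cd83 to 0.66. Centring on reference genes turned Tcf4 to −0.013, and the mean of all its probe sets turned Zbtb46 to −0.033. Leaving out 1 array gave −2.33 to 1.21 for Flt3, −0.87 to 0.26 for Xcr1, −1.56 to 0.66 for Irf8, −0.18 to 0.40 for Fscn1, −1.65 to 1.57 for Cd83 and −0.44 to 0.56 for Tcf4. A fit without 1 array leaves a lone array in its group, which is assumed to vary like the other group. Of the 72 gene values under alternatives, 19 changed sign, 12 in fits without 1 array and 7 in the others. The others include the centring on tumor epithelial genes, which shifts the differences of all probe sets alike. What sets the arrays of a label apart was not tested. Signal close to the floor, as for Xcr1 in MEKi 2, limits what these arrays can show.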
